A study of Rattus norvegicus with 9 samples.

Results

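Collagen chains are the protein strands that fold, in groups of like or unlike strands, into the helical collagens of the extracellular matrix. They were followed here in HEI-OC1, an immortalized line derived from the cochlear organ of Corti and labelled as hair cell-like. All genes whose symbol has the form Col, a type number, the letter a and a chain number were taken, which gave 40 of the 19608 genes in the table. By type they fell into 9 fibrillar chains (types I, II, III, V and XI), 6 basement membrane chains (type IV), 6 type VI chains and 19 chains of other types. Collagen genes outside the table are not analysed here.

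The 9 libraries came from cells kept for 24 h with phosphate-buffered saline (PBS, the control, 3 libraries), with neomycin, an aminoglycoside antibiotic (3 libraries), or with cisplatin, a platinum drug that crosslinks DNA (3 libraries). Both drugs are toxic to the inner ear. No genotype or dose is given in the sources used here, and HEI-OC1 is a single line, although the cell-line label ends in a different number in every sample. Nothing in the labels says that the libraries are from separate cultures, and p-values then measure only the spread between these libraries, which may be technical.

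Each collagen chain carries long runs of a glycine-led triplet, and a collagen molecule is built from copies of 1 chain or from different partner chains, depending on its type. Fibrillar collagens (I, III, V, XI) build the tensile fibres of connective tissue. Type IV forms the sheet-like network of basement membranes, type VI forms beaded filaments close to cells, and the fibril-associated types XII and XVI decorate fibres. In the cochlea, collagens are known as parts of the basilar and tectorial membranes, of the spiral ligament and of the basement membranes of the lateral wall.

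The libraries held 27516629 to 40221089 reads, worked out from the steps of the deposited FPKM values (fragments per kilobase of gene model, scaled to the size of the library). Libraries separated by treatment on the first principal component, where cisplatin lay above 0 and the other libraries below it. PBS replicate 1 differed more from the other PBS libraries (chi-square per degree of freedom 12.2 and 14.2) than those did from each other (4.23). Neomycin replicates 1 and 3 stood at 10.8, and the other pairs within a drug group at 4.75 to 7.11. Hair cell markers were sparse. Of the 11 such markers measured, 9 stayed under 1 FPKM in every library, and Pou4f3, a hair cell transcription factor, was at 0 FPKM in all PBS and neomycin libraries. Of 10 fibroblast and mesenchymal markers 8 passed the filter of a mean of at least 1 FPKM. Dcn and Fap did not, and Fap was at 0 FPKM in all PBS and neomycin libraries. Vim, an intermediate filament, was at 2739 ± 27.1 FPKM and Pdgfrb, a growth factor receptor, at 52.1 ± 2.67 FPKM in PBS (mean ± SD, n = 3). The 2 hair cell markers that passed the filter were the myosins Myo6, at 14.5 ± 0.95 FPKM in PBS, and Myo7a, at 0.883 ± 0.043 FPKM in PBS and 2.54 ± 0.11 FPKM with neomycin. Most hair cell markers were thus near 0 in this table, which goes against the label. The gene identifiers are of rat while HEI-OC1 was made from a mouse, and the bearing of this on values near 0 was not tested. The cells are called here by their line name.

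Of the 40 chains 17 passed that filter and were tested. The 23 others stayed low in every library. The 17 tested chains comprised 7 fibrillar chains, 2 of type IV, 2 of type VI and 6 of other types. Col18a1 lay just inside the filter (mean 1.01 FPKM) and Col4a6 just outside it (0.869 FPKM). Col18a1 passed only through its level with neomycin.

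In PBS, collagen chains held 1.17 ± 0.04% of all FPKM and 2.97 ± 0.11% of reads (SD, n = 3). Type I chains made up most of it. Col1a2 ranked 18 to 20 and Col1a1 ranked 23 in each PBS library among all genes by FPKM. The 3 genes Col1a1, Col1a2 and Col3a1 together made 85.9 ± 0.11% of the summed collagen FPKM in PBS. Levels of different genes are compared only on this per-length scale, and they carry a limit, since the labels and gene identifiers are of rat, HEI-OC1 was made from a mouse, and the genome named in the submitters' processing notes is mm10.

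With cisplatin the mRNA of nearly all collagen chains past the filter fell, in all classes. The low chains under the filter, given further below, were mixed. Of the 17 tested chains 16 fell, 12 of them at least 2-fold on the log2(FPKM + 1) scale used here, and 1, the minor type V chain Col5a3, rose. Col18a1 is not among the 12, since the pseudocount of 1 FPKM shrinks its change to -0.52, although its mean FPKM fell by 68.7%. Without Col18a1 15 of 16 fell. Over all 10532 tested genes 30.5% were called lower (limma adjusted p under 0.05), 3.36% were called and at least 2-fold lower, and 47.5% were called higher. The median log2 fold change was -1.20 for the chains and 0.12 over all tested genes. Scaling factors of the TMM kind put the median of all tested genes at -0.01 and the chains' median at -1.32. In bulk libraries, fewer cells of a type and less RNA per cell cannot be told apart.

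Type I, the main fibre-forming collagen and the most abundant here, fell in both of its chains. Col1a1 (Entrez gene 29393) read 2072, 1979 and 1936 FPKM in the PBS libraries and 467, 462 and 427 FPKM in the cisplatin libraries. The groups were far apart, and the mean fell by 77.3%. Its partner Col1a2 (Entrez gene 84352) read 2554, 2380 and 2306 FPKM in PBS and 749, 769 and 671 FPKM with cisplatin. The mean of Col1a2 fell by 69.8%, and its log2 fold change was -1.73 ± 0.05 (SE; limma adjusted p = 4.1e-12) against -2.14 ± 0.05 for Col1a1 (limma adjusted p = 1.7e-13). In rank among all genes, Col1a2 moved to 74 to 89 and Col1a1 to 143 to 164 in the cisplatin libraries.

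Type III, which co-assembles into thin fibres with type I, fell in the same libraries. Col3a1 (Entrez gene 84032) read 421, 432 and 422 FPKM in PBS and 154, 164 and 148 FPKM with cisplatin, without overlap (log2 fold change -1.45 ± 0.04, limma adjusted p = 2.1e-12). The fibre-nucleating chains of types V and XI also fell. Col11a1 went from 57.0 ± 1.90 to 19.8 ± 1.21 FPKM (mean ± SD, n = 3; log2 fold change -1.48 ± 0.05). Col5a1 (-1.08 ± 0.05) and Col5a2 (-1.04 ± 0.05) fell by about the same amount as each other, from 54.0 ± 2.13 and 193 ± 8.45 FPKM in PBS.

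Col5a3 was the exception. It read 2.49, 2.10 and 1.93 FPKM in PBS, 2.86, 2.89 and 2.55 FPKM with cisplatin and 2.98, 3.12 and 2.78 FPKM with neomycin. Both drug groups lay above every PBS library, by small steps, and overlapped each other. The log2 fold change was 0.25 ± 0.08 with cisplatin (limma adjusted p = 0.0085) and 0.32 ± 0.08 with neomycin (limma adjusted p = 0.0021). TMM-type factors ended the cisplatin call (0.15, limma adjusted p = 0.107), and quantile normalization ended the neomycin call (0.20, limma adjusted p = 0.0525).

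**Figure D1:**
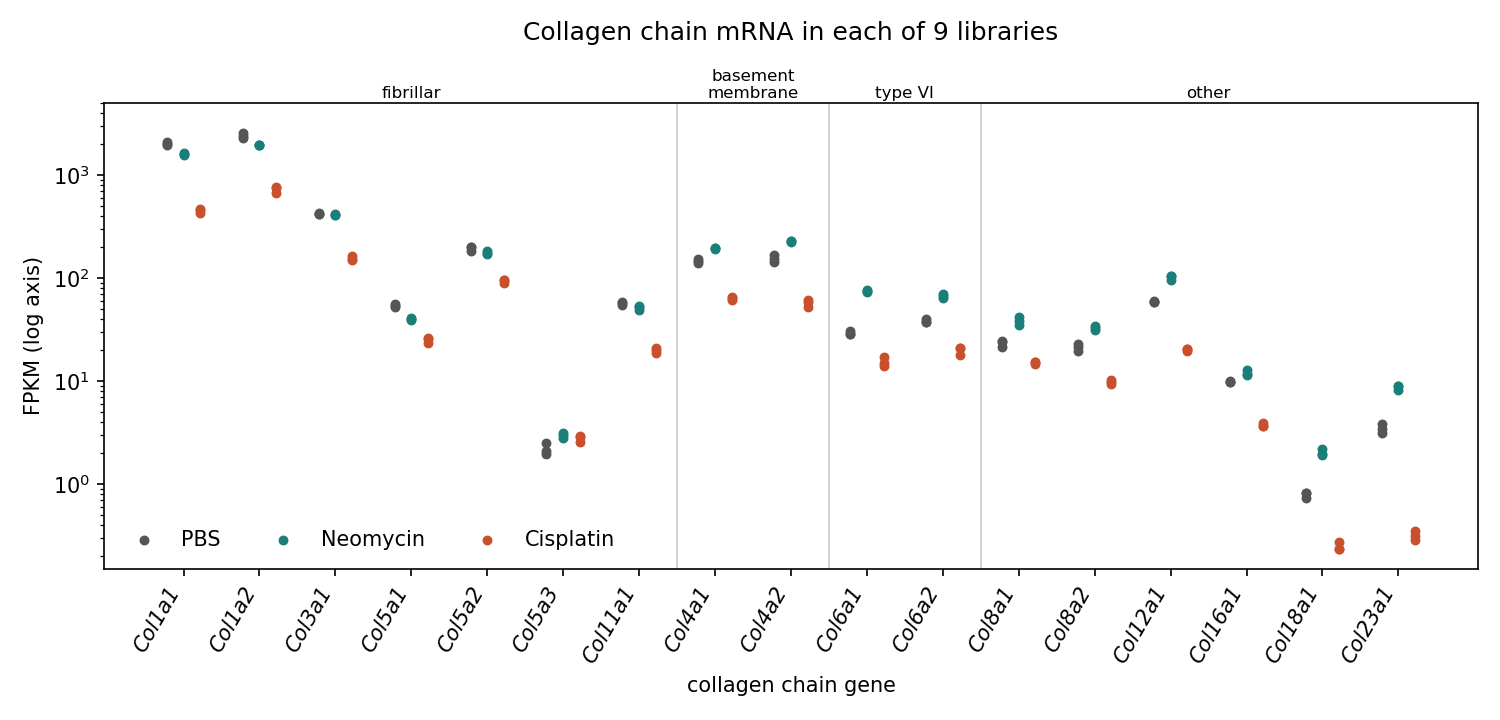
FPKM of the 17 tested collagen chains in each of the 9 libraries, on a log axis, with 1 point per library and the chains grouped by class. Cisplatin points lie below the PBS points for 16 chains and above them for Col5a3, and neomycin points lie above the PBS points for every chain outside the fibrillar class.

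The type IV chains Col4a1 and Col4a2, which form the common heterotrimer of basement membranes, fell with cisplatin and rose with neomycin. Col4a1 (Entrez gene 290905) read 154, 147 and 139 FPKM in PBS, 64.5, 65.1 and 60.4 FPKM with cisplatin and 189, 193 and 196 FPKM with neomycin. Col4a2 (Entrez gene 306628) read 166, 152 and 144 FPKM in PBS, 58.8, 61.5 and 52.6 FPKM with cisplatin and 229, 227 and 226 FPKM with neomycin. No group overlapped another for either chain. With cisplatin the log2 fold changes were -1.20 ± 0.05 for Col4a1 (limma adjusted p = 3.1e-11) and -1.40 ± 0.06 for Col4a2 (limma adjusted p = 7.0e-11). With neomycin they were 0.40 ± 0.05 (limma adjusted p = 5.4e-06) and 0.56 ± 0.06 (limma adjusted p = 2.0e-06).

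These partners are also neighbours in the genome. In the RefSeq rat gene table (GRCr8) Col4a1 and Col4a2 are adjacent with 0 protein-coding genes between them, and they are read in opposite directions from starts 77 bases apart. Their promoter windows, 250 bases before to 50 after the start, share 176 bases. They are printed because both chains start in this shared stretch. Both moved in the same direction with each drug, but so did most other tested chains. With cisplatin 16 of 17 fell, and with neomycin all tested chains outside the fibrillar class rose. Any part of the stretch in these changes was not tested. The windows are of rat, while HEI-OC1 was made from a mouse, so they need not match the sequence in these cells. Capitals mark CCAAT and GGGCGG on either strand (ATTGG and CCGCCC on the other), and the sequences are RefSeq's, 5′ to 3′ on the strand of each gene, at chr16:84885347-84885646 (plus strand, Col4a1) and chr16:84885471-84885770 (minus strand, Col4a2) of GRCr8.
Col4a1: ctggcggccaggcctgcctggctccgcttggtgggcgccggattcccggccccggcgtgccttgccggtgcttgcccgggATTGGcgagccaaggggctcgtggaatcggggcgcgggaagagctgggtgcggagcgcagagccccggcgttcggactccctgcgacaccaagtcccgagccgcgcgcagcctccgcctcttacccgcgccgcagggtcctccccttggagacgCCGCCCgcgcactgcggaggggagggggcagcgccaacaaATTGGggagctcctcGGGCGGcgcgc
Col4a2: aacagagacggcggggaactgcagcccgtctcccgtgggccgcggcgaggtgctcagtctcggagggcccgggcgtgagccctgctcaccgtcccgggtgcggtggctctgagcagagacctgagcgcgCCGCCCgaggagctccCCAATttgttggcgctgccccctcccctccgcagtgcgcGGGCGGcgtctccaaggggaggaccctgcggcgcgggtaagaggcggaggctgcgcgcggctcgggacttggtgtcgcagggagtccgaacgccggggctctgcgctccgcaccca

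The same pieces of sequence recur in both lines in reverse complement. The windows are rich in G and C, at 75.0% for Col4a1 and 73.7% for Col4a2, and hold 2 GGGCGG matches each. These are the same 2 sites, read from opposite strands. GGGCGG occurred in 33.1% of all 33469 RefSeq promoter windows and CCAAT in 37.5%. Promoter windows were found for 32 of the 40 chains, 35 windows in all, of which 20 held GGGCGG and 12 held CCAAT. Among the 13 tested chains with a window, 10 held GGGCGG (Col4a1, Col4a2, Col5a1, Col5a3, Col8a1, Col8a2, Col11a1, Col16a1, Col18a1 and Col23a1) and 5 held CCAAT (Col1a2, Col4a1, Col4a2, Col5a3 and Col11a1). TATAAA, found in 14.2% of all windows, was present in 1, that of Col1a2. The shares over all windows include genes that were not tested here, and no share over tested genes was computed. Col4a1 and Col4a2 are counted separately for the GGGCGG sites they share. These are matches of letters, not shown to be bound sites.

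The other adjacent collagen pairs with both chains tested were Col3a1 with Col5a2 and Col6a1 with Col6a2. Col3a1 and Col5a2 both fell with cisplatin. With neomycin Col5a2 was at -0.13 ± 0.05 (limma adjusted p = 0.0193) and Col3a1 at -0.05 ± 0.04 (limma adjusted p = 0.27). The call for Col5a2 was lost with quantile normalization (0.0829), without PBS replicate 1 (0.0561), without PBS replicate 2 (0.0688) and without neomycin replicate 1 (0.0624), all limma adjusted p.

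On the log2(FPKM + 1) scale, type VI chains had the widest swing between the drugs among the classes with called chains. The median cisplatin against neomycin difference was -1.96, from 2 chains. That scale shrinks the changes of low chains. Col23a1 (-2.89 ± 0.07) and Col12a1 (-2.28 ± 0.05), of the other types, differed more than either type VI chain. Col6a1 (Entrez gene 294337) read 30.6, 28.7 and 28.4 FPKM in PBS, 75.9, 74.5 and 73.3 FPKM with neomycin and 14.8, 17.2 and 13.9 FPKM with cisplatin. Col6a2 (Entrez gene 361821) read 39.8, 36.9 and 37.0 FPKM in PBS, 66.9, 70.2 and 64.5 FPKM with neomycin and 20.8, 21.01 and 17.9 FPKM with cisplatin. The 3 groups stood apart for both chains. Neomycin raised Col6a1 by 1.32 ± 0.06 (limma adjusted p = 2.0e-09) and Col6a2 by 0.81 ± 0.06 (limma adjusted p = 8.4e-08) on the log2 scale, while with cisplatin both fell, by 0.90 ± 0.06 each.

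Col6a3, the chain that completes the common type VI molecule, was almost silent. It gave 18, 20 and 23 reads in the PBS libraries, 84, 76 and 78 with neomycin and 4, 7 and 1 with cisplatin. Its FPKM was 0.00181 ± 0.000145 of that of Col6a1 in PBS. Low as it was, it ranked the 3 groups in the order of Col6a1 and Col6a2. The alternative chains Col6a4, Col6a5 and Col6a6 gave 3, 1 and 1 reads in all 9 libraries.

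With neomycin the collagen chains divided by class. Of the 17 tested chains 11 rose, 5 fell and 1 did not pass the test. On the log2(FPKM + 1) scale Col6a1 and Col23a1 rose at least 2-fold. The scale shrinks Col18a1, whose mean FPKM was 156% higher, to 0.75. Over all tested genes 37.5% were called higher, 28.7% lower, and 1.08% both called and at least 2-fold higher. The 10 tested chains of type IV, type VI and the other types all rose, and of the 7 fibrillar chains 5 fell, Col5a3 rose and Col3a1 was not called. The median log2 fold change was -0.15 for the fibrillar chains, 0.48 for type IV, 1.07 for type VI and 0.73 for the other types, against 0.04 over all tested genes. Col3a1 was called lower with TMM-type factors (-0.14, limma adjusted p = 0.012). The difference between the classes was not tested, and Col18a1 is among the 10 that rose.

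The fibrillar falls with neomycin were small beside those with cisplatin. Col1a1 read 1574, 1629 and 1595 FPKM with neomycin, a log2 fold change against PBS of -0.32 ± 0.05 (limma adjusted p = 3.0e-05). Col1a2 read 1943, 1938 and 1954 FPKM (-0.31 ± 0.05, limma adjusted p = 0.000187). All neomycin libraries lay below all PBS libraries for both chains. Col5a1 had the largest fibrillar fall, to 39.9 ± 0.61 FPKM (-0.43 ± 0.05, limma adjusted p = 3.7e-06). Col11a1 was at 51.4 ± 2.39 FPKM (-0.15 ± 0.05, limma adjusted p = 0.0263), and its call was lost without PBS replicate 2 (0.0969), PBS replicate 3 (0.055) or neomycin replicate 1 (0.11) and with no filter on low values (0.0585), all limma adjusted p. Without PBS replicate 2 and without neomycin replicate 1 the count of falling chains was 3 in place of 5.

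**Figure D2:**
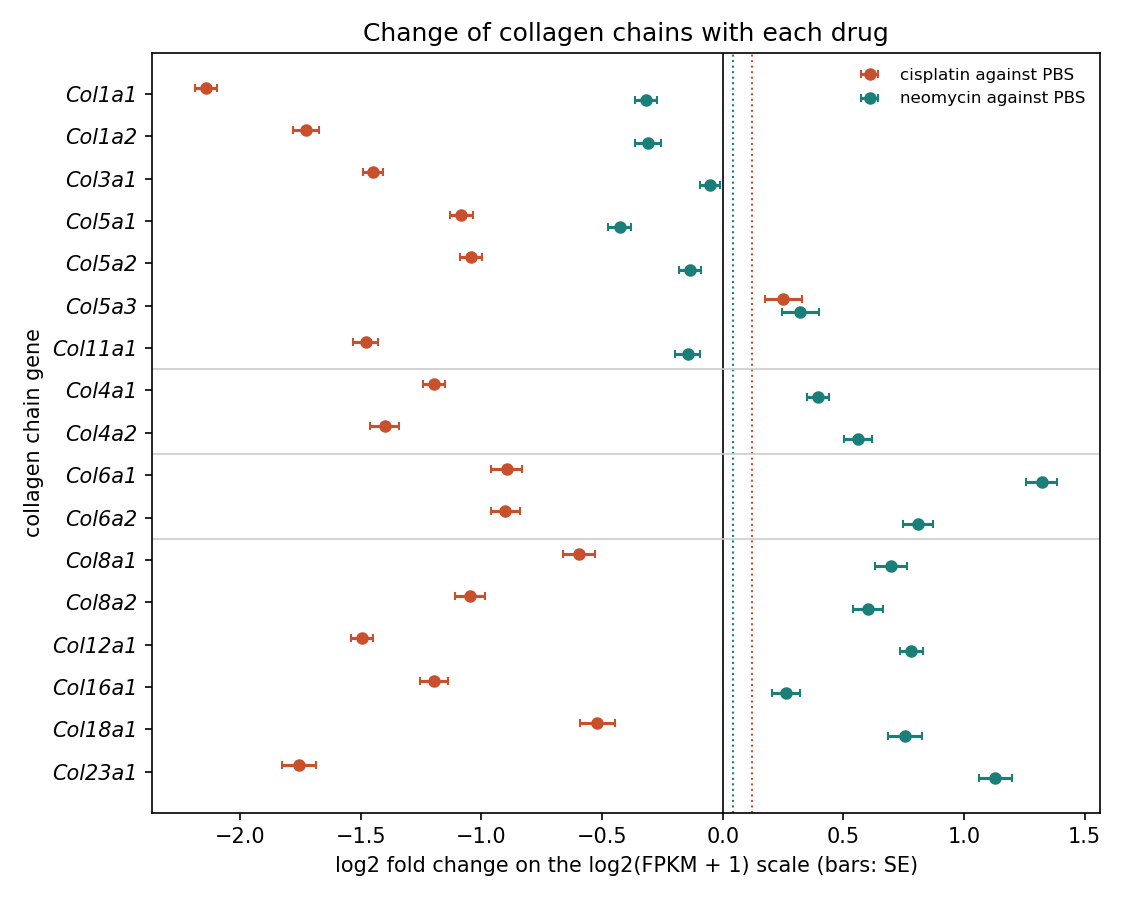
Log2 fold change of each tested collagen chain for cisplatin against PBS and neomycin against PBS, with bars for the standard error and dotted lines for the median of all tested genes. The drugs share the PBS libraries. Cisplatin values run from -2.14 to 0.25 and neomycin values from -0.43 to 1.32.

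The 6 tested chains of other types all rose with neomycin, by 0.26 to 1.13 on the log2 scale, and all fell with cisplatin. Col23a1 (Entrez gene 353303), a transmembrane collagen, read 3.78, 3.15 and 3.42 FPKM in PBS, 9.01, 8.22 and 8.96 FPKM with neomycin and 0.347, 0.314 and 0.285 FPKM with cisplatin. The groups were distinct, and the mean was 153% higher with neomycin and fell by 90.9% with cisplatin. Its log2 fold changes were 1.13 ± 0.07 with neomycin (limma adjusted p = 1.6e-08) and -1.76 ± 0.07 with cisplatin (limma adjusted p = 3.8e-11), and -2.89 ± 0.07 for cisplatin against neomycin (limma adjusted p = 3.3e-13) was the largest difference between the drugs among the 17 chains. The scale understates changes at such low levels.

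Col12a1 (Entrez gene 25683), the fibril-associated type XII chain, read 58.0, 58.2 and 60.05 FPKM in PBS, 96.0, 104 and 105 FPKM with neomycin and 20.5, 20.6 and 19.5 FPKM with cisplatin. The 3 groups were distinct, at log2 fold changes of 0.78 ± 0.05 and -1.50 ± 0.05 against PBS. Col16a1, also fibril-associated, moved less with neomycin (9.81 ± 0.11 to 11.97 ± 0.78 FPKM, 0.26 ± 0.06) and fell to 3.72 ± 0.16 FPKM with cisplatin (-1.20 ± 0.06). The short-chain network collagens of type VIII, known from the basement membrane of the corneal endothelium and from vessels, rose with neomycin from 23.1 ± 1.63 to 38.2 ± 3.67 FPKM for Col8a1 and from 21.2 ± 1.78 to 32.7 ± 1.34 FPKM for Col8a2. With cisplatin Col8a2 fell to 9.75 ± 0.42 FPKM (-1.05 ± 0.06) and Col8a1 to 14.9 ± 0.29 FPKM (-0.59 ± 0.07). Col18a1, whose end fragment is endostatin, averaged 0.785 ± 0.052 FPKM in PBS, 2.01 ± 0.16 FPKM with neomycin and 0.246 ± 0.022 FPKM with cisplatin (0.75 ± 0.07 and -0.52 ± 0.07).

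Set directly against neomycin, cisplatin left 16 of 17 chains lower, 14 of them at least 2-fold, and 0 higher. Over all tested genes 81.6% were called, 36.6% lower and 45.0% higher, with 5.92% at least 2-fold lower and 7.53% at least 2-fold higher. The chain not called was Col5a3 (-0.07 ± 0.08, limma adjusted p = 0.398). Low chains entered when no filter was used, and 3 collagen chains were then called higher. The medians were -1.33 for fibrillar chains, -1.78 for type IV and -1.55 for the other types, beside the type VI value given above.

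Summed over all 40 chains, the collagen share of FPKM fell from 1.13 to 1.21% in the PBS libraries to 0.303 to 0.343% in the cisplatin libraries. It was 1.05 to 1.10% with neomycin. No group overlapped another, but 3 against 3 libraries cannot give a two-sided exact permutation p below 0.1, which was the p for each pair. The neomycin direction turned when 3 genes were left out together. Of these, Col3a1 was itself not called with neomycin (limma adjusted p = 0.27). Without Col1a1, Col1a2 and Col3a1 the share was 0.165 ± 0.005% in PBS, 0.223 ± 0.007% with neomycin and 0.0674 ± 0.0039% with cisplatin.

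The make-up of the collagen sum shifted as well. Fibrillar chains made 91.4 ± 0.03% of summed collagen FPKM in PBS, 84.8 ± 0.07% with neomycin and 87.8 ± 0.08% with cisplatin (SD, n = 3). Type IV held 5.35 ± 0.12%, 8.46 ± 0.04% and 7.19 ± 0.03% in the same order, and type VI 1.19 ± 0.02%, 2.85 ± 0.08% and 2.09 ± 0.08%. Both drugs thus left a larger part of the sum outside the fibrillar class, at a much smaller sum with cisplatin.

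**Figure D3:**
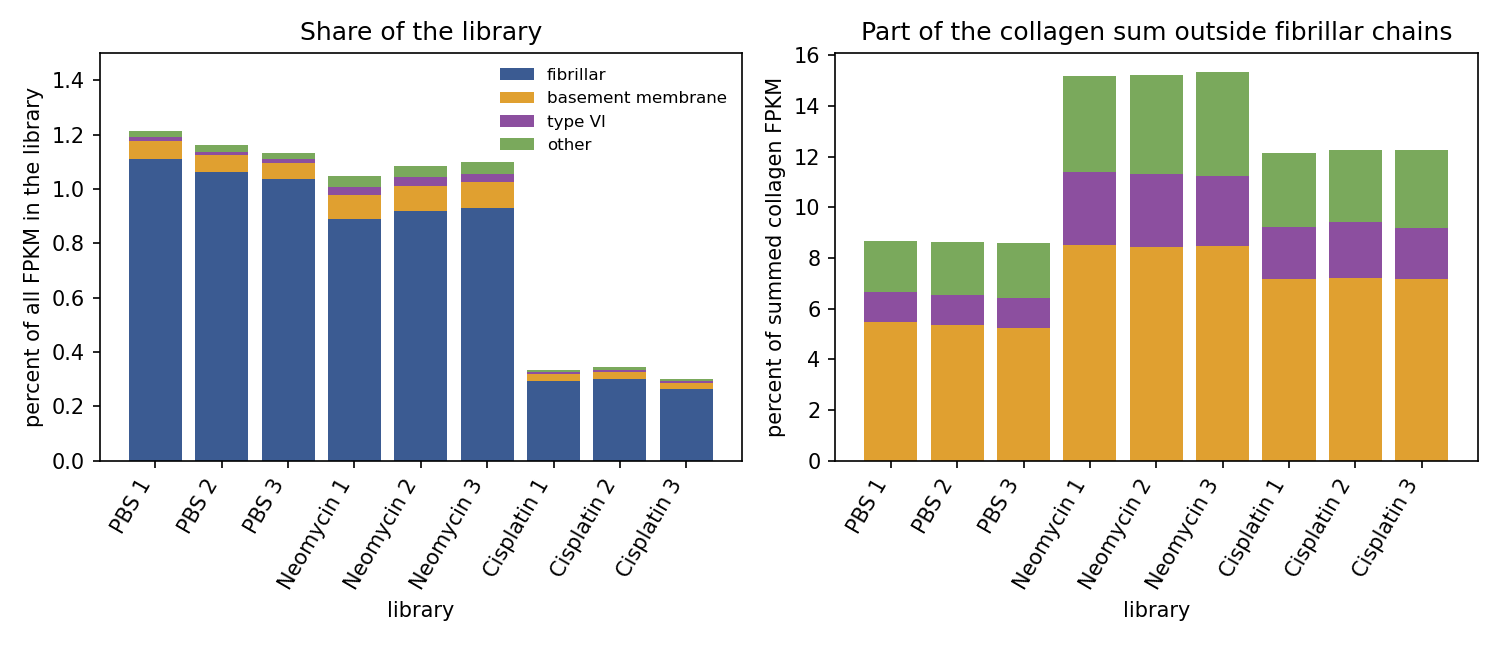
Left, percent of all FPKM in each library held by the 4 collagen classes. Right, percent of the summed collagen FPKM held by the 3 classes outside the fibrillar one, which is higher in all neomycin and cisplatin libraries than in the PBS libraries.

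Partner chains of a single collagen type did not keep fixed ratios. Col1a1 to Col1a2, which assemble in unequal numbers in type I collagen, stood at 0.811, 0.832 and 0.839 in PBS and at 0.810, 0.841 and 0.816 with neomycin. With cisplatin the ratio was 0.624, 0.600 and 0.637, below every other library. Col4a1 to Col4a2 was 0.953 ± 0.021 in PBS, 0.849 ± 0.022 with neomycin and 1.10 ± 0.045 with cisplatin (SD, n = 3), so the drugs lay on opposite sides of PBS. Col6a1 to Col6a2 was 0.768, 0.778 and 0.767 in PBS and 1.13, 1.06 and 1.14 with neomycin. With cisplatin it was 0.714, 0.819 and 0.775, on both sides of the PBS values. Col5a1 to Col5a2 was 0.279 ± 0.009 in PBS, 0.227 ± 0.009 with neomycin and 0.267 ± 0.004 with cisplatin. The ratios are given as values with no test.

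**Figure D4:**
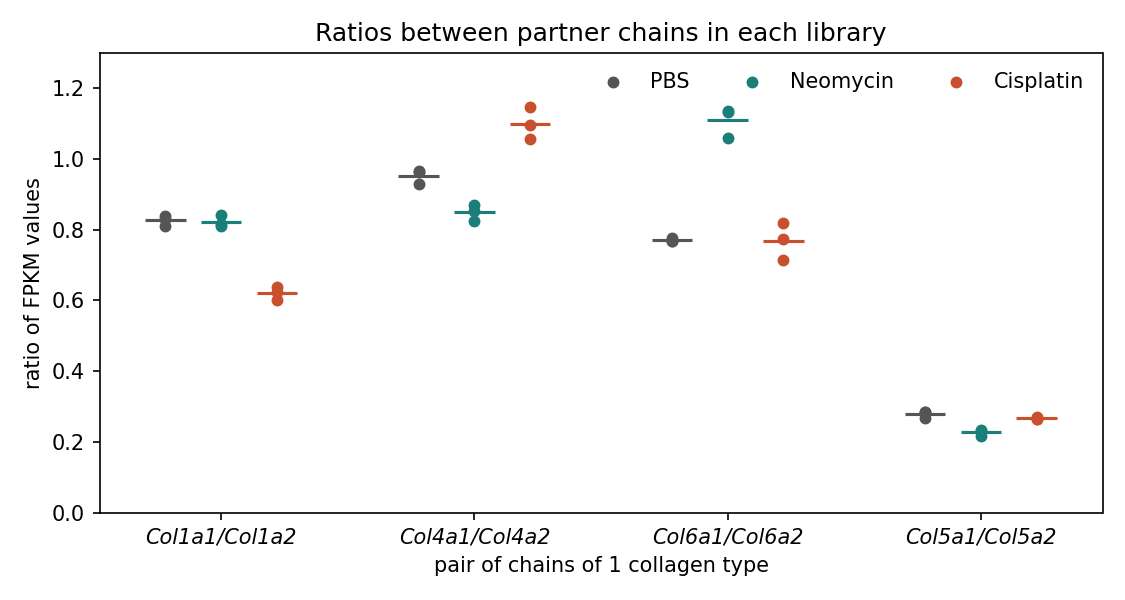
Ratio of FPKM values of 4 pairs of partner chains, with 1 point per library and a line at the group mean. The Col1a1 to Col1a2 ratio is lowest with cisplatin (0.600 to 0.637) and the Col6a1 to Col6a2 ratio highest with neomycin (1.06 to 1.14).

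The 23 chains under the filter included 9 with fewer than 10 reads over all libraries (Col4a4, Col4a5, Col6a4, Col6a5, Col6a6, Col13a1, Col22a1, Col24a1 and Col28a1). Apart from Col4a6, none of the 23 went above 0.405 FPKM in any library. Among them were the cartilage chain Col2a1 (14 reads in all), Col11a2, a type XI chain found in the tectorial membrane (72 reads), the chains Col4a3 (36 reads) and Col4a4 (1 read) of specialised basement membranes, and Col9a3 (24 reads). Col10a1, Col14a1, Col15a1 and Col17a1 gave 26, 22, 11 and 21 reads. A gene model of 1 kb needs 0.0746 to 0.109 FPKM, depending on the library, for 3 reads, and a longer model needs less. Col7a1, with a model of 9312 bases, gave 9, 11 and 10 reads in PBS at 0.0281 to 0.0343 FPKM. The chains with the fewest reads cannot be told from absence at this depth.

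The 14 low chains with at least 10 reads were tested on whole reads with limma-voom, a test chosen after the data were seen. With cisplatin 4 rose (Col2a1, Col7a1, Col11a2 and Col20a1) and 3 fell (Col4a6, Col6a3 and Col27a1), while 40.4% of all 15675 genes in that test rose and 24.6% fell. Col2a1 reached 10 reads only through the cisplatin libraries, which held 11 of its 14 reads. Col7a1, which makes the anchoring fibrils of skin, gave 9, 11 and 10 reads in PBS, 9, 8 and 9 with neomycin and 66, 85 and 120 with cisplatin. Every cisplatin library stood above all the others (log2 fold change 3.00 ± 0.39, limma-voom adjusted p = 1.5e-07). Col20a1 gave 2, 5 and 6 reads in PBS, 12, 14 and 10 with neomycin and 43, 36 and 63 with cisplatin (3.27 ± 0.53 for cisplatin against PBS, limma-voom adjusted p = 5.5e-06).

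The low chain with most reads, Col4a6, partner of Col4a5 in a further type IV molecule, behaved like the type IV chains above. It gave 230, 256 and 194 reads in PBS, 324, 307 and 417 with neomycin and 25, 31 and 25 with cisplatin. The fall with cisplatin was -3.12 ± 0.29 (limma-voom adjusted p = 3.7e-10) and the rise with neomycin 0.86 ± 0.13 (limma-voom adjusted p = 3.5e-06) on the log2 scale. Its partner Col4a5 gave 3 reads in all. With neomycin 4 low chains rose (Col4a6, Col6a3, Col9a2 and Col20a1) and 0 fell, while 31.0% of genes in that test rose and 20.1% fell. Col9a2, a fibril-associated chain of cartilage, gave 8, 3 and 12 reads in PBS, 30, 27 and 41 with neomycin and 7, 2 and 5 with cisplatin. Its neomycin libraries stood above all the others. For cisplatin against neomycin 3 low chains were higher (Col7a1, Col11a2 and Col20a1) and 6 lower (Col4a6, Col6a3, Col9a2, Col9a3, Col14a1 and Col27a1), beside 36.8% and 31.4% of genes in that test. Col9a3 (6, 15 and 3 reads in PBS, neomycin and cisplatin) and Col14a1 (5, 14 and 3 reads) reached 10 reads only through neomycin.

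The lists of collagen-related genes are to be read against all 10532 tested genes, of which 78.0% were called with cisplatin (47.5% higher, 30.5% lower) and 66.2% with neomycin (37.5% higher, 28.7% lower). Most genes that modify collagen in the endoplasmic reticulum fell with cisplatin. Of 14 tested genes for prolyl and lysyl hydroxylation 12 fell and 2 rose, with a median log2 fold change of -0.42 that was smaller than that of the chains. The largest falls were those of P3h4 (-1.01 ± 0.06), a partner of lysyl hydroxylase, P3h1 (-0.76 ± 0.05) and P3h3 (-0.66 ± 0.05), of the prolyl 3-hydroxylase family, and P4ha2 (-0.67 ± 0.05), a catalytic subunit of prolyl 4-hydroxylase. With neomycin 3 rose and 6 fell, beside 37.5% and 28.7% of all genes, among them P3h3 (0.46 ± 0.05) and P3h1 (-0.39 ± 0.05). Only both directions together were near the share called over all genes.

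In folding and export, 11 of 19 tested genes fell with cisplatin and 4 rose, beside 30.5% and 47.5% of all genes. Only the share called in both directions together was near that of all genes. Serpinh1, the collagen chaperone HSP47, read 750.1 ± 36.9 FPKM in PBS, 467 ± 13.4 FPKM with neomycin and 387 ± 9.11 FPKM with cisplatin (SD, n = 3), with log2 fold changes of -0.68 ± 0.04 and -0.95 ± 0.04. The coat protein Sec31a (-0.94 ± 0.05) and Creb3l1 (-0.94 ± 0.05), a transcription factor for collagen secretion genes, fell too. Klhl12, an adaptor for the ubiquitination of Sec31, rose by 1.02 ± 0.07. With neomycin 5 rose and 7 fell, including the export factor Mia2 (-0.61 ± 0.07), beside 37.5% and 28.7% of all genes. Both directions together were again near the share over all genes, and with TMM-type factors 2 rose and 8 fell. With quantile normalization the splits were 2 and 13 for cisplatin and 3 and 7 for neomycin.

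Of the propeptide processing list 2 genes were tested. Pcolce, an enhancer of the procollagen C-proteinase, fell with cisplatin by 0.44 ± 0.04, and Bmp1, that proteinase, fell by 0.19 ± 0.06 and rose with neomycin by 0.44 ± 0.06. Of 4 crosslinking genes 3 fell with cisplatin, the lysyl oxidases Lox (-0.33 ± 0.05), Loxl2 (-0.22 ± 0.04) and Loxl3 (-0.22 ± 0.06), and Loxl4 rose by 0.91 ± 0.07. With neomycin Loxl2 (0.37 ± 0.04) and Loxl4 (0.18 ± 0.07) rose and 1 gene, Lox, fell by 0.13 ± 0.05. The Lox call (limma adjusted p = 0.0423) did not hold with quantile normalization, and leaving out PBS replicate 2 or PBS replicate 3 left 1 called gene in the list. The Loxl4 call with neomycin was lost under 9 alternatives, among them TMM-type factors (limma adjusted p = 0.128), where the list divided as 1 and 1, and quantile normalization (0.478), where it divided as 1 and 0.

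Of 11 tested genes for matrix proteins that bind collagen 9 fell with cisplatin and 1 rose, beside 30.5% and 47.5% of all genes. With neomycin 9 rose and 0 fell, beside 37.5% and 28.7% of all genes. The 2 not called with neomycin were Sparc (0.05 ± 0.04), a collagen-binding glycoprotein, and Fn1, fibronectin (0.05 ± 0.05). Hspg2, the perlecan core protein of basement membranes, fell with cisplatin by 1.57 ± 0.06 on the log2 scale, Fn1 by 1.21 ± 0.05 and Bgn, the proteoglycan biglycan, by 0.92 ± 0.04. Thbs1, thrombospondin 1, rose by 1.63 ± 0.05. The largest rises with neomycin were those of Fmod, fibromodulin (1.39 ± 0.09), and Thbs2 (0.65 ± 0.08). Both, and Lum among the others that rose, passed the filter only through the neomycin group.

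Receptors that bind collagen fell in 6 of 8 cases with cisplatin, and 0 rose, beside 30.5% of all genes called lower. They were led by the integrin chains Itga1 (-1.20 ± 0.08) and Itga11 (-1.04 ± 0.04), the uptake receptor Mrc2 (-1.14 ± 0.06) and Adgrg6 (-0.80 ± 0.07), an adhesion receptor. With neomycin 4 rose and 3 fell, including Adgrg1 (0.71 ± 0.08) and Adgrg6 (-0.50 ± 0.07). Of 5 tested collagen-degrading enzymes 4 fell with cisplatin, against the same 30.5%, among them the collagenase Mmp13 (-2.57 ± 0.09), the membrane-bound Mmp14 (-1.32 ± 0.04) and Mmp16 (-1.12 ± 0.07), and the lysosomal Ctsl rose by 0.56 ± 0.04. With neomycin Ctsl rose (0.43 ± 0.04) and Mmp16 fell (-0.48 ± 0.07), in a split of 2 and 1.

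Regulators of collagen genes were mixed. Of 26 tested genes of TGF-beta signalling and collagen transcription 12 rose and 10 fell with cisplatin, beside 47.5% and 30.5% of all genes. With TMM-type factors and with quantile normalization 11 rose and 13 fell. The rises included the matricellular protein gene Ccn2 (2.76 ± 0.08), the inhibitory Smad7 (1.41 ± 0.07), the ligand Tgfb2 (1.33 ± 0.05) and Nfyb, a subunit of the CCAAT-binding factor (1.14 ± 0.08). The ligand Tgfb1 was called lower (-0.51 ± 0.04). With neomycin 6 rose and 10 fell, beside 37.5% and 28.7% of all genes, with Scx, a tendon transcription factor that drives type I collagen (0.76 ± 0.08), and Tgfb3 (0.65 ± 0.06) the largest changes. Nfyb was called lower there (-0.39 ± 0.08).

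**Figure D5:**
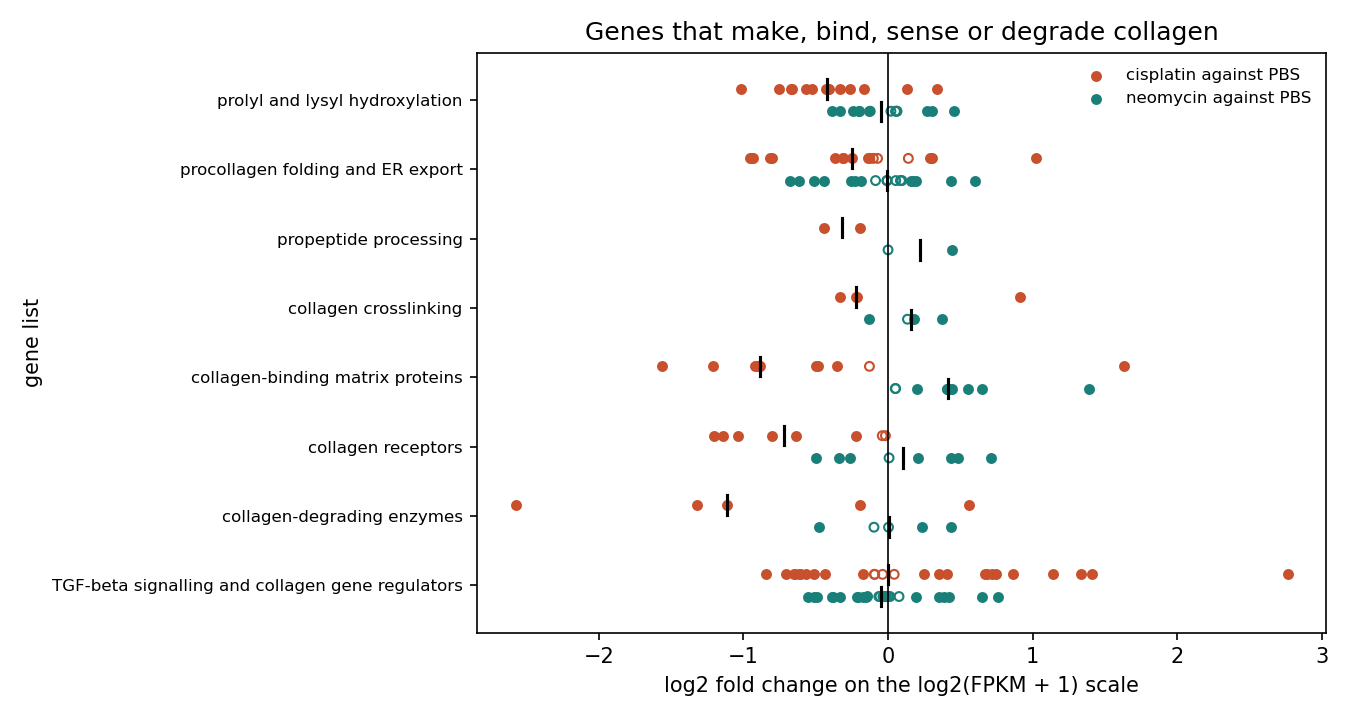
Log2 fold changes of the tested members of 8 lists of genes that make, bind, sense, degrade or regulate collagen, with filled points for called members, open points for the others and a bar at each median. The cisplatin median of the collagen-binding list is -0.89 and the neomycin median 0.42.

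Fibroblast and mesenchymal markers moved with cisplatin in the direction of the collagens. Of 8 tested markers 6 fell and 2 rose with cisplatin, and 5 rose and 1 fell with neomycin, where 78.0% and 66.2% of all tested genes were called. The summed level of the 10 markers was 4291 to 4406 FPKM in PBS, 4176 to 4290.3 with neomycin and 3195 to 3269.8 with cisplatin. Vim and S100a4 made up most of that sum, and Vim averaged 2739 FPKM in PBS and 2370 FPKM with neomycin. None of the 10 was at 0 in every library, but Fap was above 0 only in cisplatin replicate 3. The sum of 6 bone and cartilage markers was 10.7 to 11.5, 14.5 to 15.7 and 10.8 to 13.3 FPKM in the same order, that of 5 endothelial markers 2.16 to 2.54, 2.93 to 3.13 and 0.398 to 0.68 FPKM, and that of 4 epithelial markers 0.913 to 2.10, 2.25 to 2.76 and 0.699 to 1.27 FPKM. The sum of 11 hair cell markers, most of it Myo6, was 14.99 to 16.5, 17.1 to 19.1 and 8.53 to 9.69 FPKM. Sums of the 4 Schwann cell markers and the 2 leukocyte markers in the table stayed under 2 FPKM in every library, the latter at 0.152 to 0.287 FPKM in PBS and 1.58 to 1.94 FPKM with cisplatin. Cd68 made up most of the leukocyte sum and Tek most of the endothelial sum. The 3 tested bone and cartilage markers were split. Bglap, past the filter only through cisplatin, averaged 0.350 FPKM in PBS and 5.26 FPKM with cisplatin. Alpl averaged 6.50 and 3.62 FPKM and Runx2 3.90 and 2.20 FPKM in the same order. The part of these shifts in the collagen changes was not tested.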

How the data were processed

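Libraries were grouped by sample title into PBS, neomycin and cisplatin, 3 each. Per the labels' protocols, RNA was column-purified and libraries were made with a SMARTER mRNA kit. The deposited table holds FPKM values computed by the authors for 19608 genes. The sources used here name no aligner or counter. The submitters' processing notes name mm10, while identifiers are those of rat, so only rat RefSeq names, neighbours and promoter windows (GRCr8) were used. Entrez numbers of all 40 chains were found there.

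The 10532 genes that averaged 1 FPKM or more were tested on log2(FPKM + 1) with limma 3.58.1 in R 4.3.3, with 1 mean per group, all 9 libraries and a mean-variance trend. P-values were adjusted by Benjamini-Hochberg over all tested genes within each comparison, at a threshold of 0.05, and ± after a log2 fold change is a standard error. The pseudocount of 1 FPKM shrinks the fold changes of low genes. Whole reads were recovered from the FPKM steps (tolerance 0.001 of a read, 19608 genes), and the recovery and the test were checked on simulated data. Percent values, ratios and sums were computed per library, with exact permutation tests in scipy 1.17.1. Floors of 3 reads cover counting error only.

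The chains and lists were chosen with earlier results of these data known. Every chain past the filter was named. From each list up to 4 called genes by size for cisplatin and up to 2 for neomycin were named. Lox, Nfyb, Sparc, Fn1 and Lum with neomycin, Tgfb1 with cisplatin and the levels of Serpinh1 were added after values were seen. So were the markers Vim, Pdgfrb, S100a4, Dcn, Fap, Pou4f3, Myo6, Myo7a, Cd68, Tek, Bglap, Alpl and Runx2. Alternatives were pseudocount, filters, TMM-type factors, quantile normalization, voom on recovered reads, fits of the 2 groups only, a replicate block and leaving out each library.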

Additional observations from a re-analysis of the deposited data

How the results depend on the processing

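Across all alternatives, 897 of 909 values for single collagen chains and 792 of 801 for the list genes named by size of change kept their direction and their side of the threshold. The 12 that did not concerned Col5a3, Col5a2, Col11a1 and Col3a1, and the 9 others Loxl4 with neomycin. Genes added after values were seen, Lox with neomycin among them, were not part of these 801. Col5a3 turned its sign for cisplatin against neomycin under quantile normalization (0.0139, limma adjusted p = 0.884). The cause was not tested.

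Chains called higher with cisplatin against PBS numbered 1 as reported, 4 with no filter, 0 with a mean of at least 5 FPKM (which leaves out Col5a3), 0 with TMM-type factors and 5 with voom on every gene of at least 10 reads. Against neomycin they numbered 0 as reported and 3 with no filter and with that voom test. Leaving out single libraries gave 3 to 5 chains called lower with neomycin. The neomycin difference in collagen share, -0.092 percentage points, was 0.058 without Col1a1, Col1a2 and Col3a1. Propeptide processing calls were 4 with no filter and 4 with that voom test for cisplatin, and 3 and 2 for neomycin, as more members entered. For neomycin, crosslinking calls were 1 with quantile normalization, 6 with that voom test and 1 with the 2 groups only, and 1 to 3 with single libraries left out. Collagen-degrading calls for neomycin were 5 with no filter and with that voom test.

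Deviations from the group means correlated at -0.0458 to 0.304 between libraries of the same replicate number and at -0.287 to 0.188 between different numbers. These ranges overlap. By number, pairs of replicate 1 stood at 0.131 to 0.304, of replicate 2 at -0.0458 to 0.0278 and of replicate 3 at 0.0481 to 0.189. Replicate 1 against replicate 3 stood at -0.287 to -0.0521. Whether replicate numbers pair the libraries cannot be settled from these values. The replicate block left 16 chains lower and 1 higher with cisplatin and 11 higher and 5 lower with neomycin, and moved all calls to 8424 and 7261. Depth limits the 9 chains with fewer than 10 reads, for which no test was made.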
